A study of Mus musculus with 11 samples.

Results

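The genes described here are 10 leukocyte adhesion and homing molecules, chosen by gene symbol as a fixed list, out of 29809 named genes measured in single cells of the mouse colonic mucosa. They comprise the endothelial ligands Selp, Sele, Icam1, Vcam1 and Madcam1, the venular chemokine receptor Ackr1, the selectin ligand core protein Selplg, and the integrin subunits Itga4, Itgb7 and Itgae. Cells from colons stripped of their muscle layers were profiled by droplet 3′ RNA sequencing, which counts unique molecular identifiers (UMIs), each standing for 1 captured RNA molecule. There were 11 libraries, each from a pool of 3 or 8 mice and each the only library of its group, so differences between groups have no replicate check. The count table held 55603 cells of these libraries in 28 cell types named by the authors, which were joined into 16 classes.

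The Il10-/- library came from mice of about 10 months with a deletion of Il10 and colitis, with no chemical treatment. The 9 DSS libraries came from wild-type mice that drank 3% dextran sodium sulfate, which injures the colonic epithelium, for 6 days from the age of about 2 months. They were dissected on 9 days counted from the start of treatment, which were days 6, 7 and 9, days 11 and 12, days 16, 18 and 19, and day 23. The uninjured library came from untreated wild-type mice of about 2 months. The day 7, 11 and 18 libraries were a batch run on fresh cells (batch C, 3 mice each), and the other 8 libraries were run from frozen cells in batch A of the authors' cell table (8 mice each). Genotype and age differ together between the Il10-/- and uninjured libraries and cannot be told apart.

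Leukocytes leave the blood in steps. Selectins on activated venules (P-selectin from Selp, E-selectin from Sele) catch rolling leukocytes through sugars carried on PSGL-1, the product of Selplg. Integrins on the leukocyte then bind ICAM-1, VCAM-1 or MAdCAM-1 on the vessel wall, and the α4 and β7 chains (Itga4, Itgb7) form the receptor for MAdCAM-1 that directs lymphocytes to the gut, while the αE chain (Itgae, CD103) pairs with β7 to bind E-cadherin on epithelium.

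Total UMIs per library ran between 7922350 on day 6 and 87012379 on day 11. Median UMIs per cell were 4579 to 7809.5 in the 3 fresh libraries, 2627 in the Il10-/- library, 2116.5 to 2577 in the frozen DSS libraries and 3714 in the uninjured library, in which 21.1% of UMIs were mitochondrial. Of 54976 distinct cell barcodes, 611 occurred in more than 1 library. The largest overlap of a pair of libraries was 0.999% of the barcodes of the smaller one. The blood endothelial class held 1320 cells, with 54 in the Il10-/- library, 27 to 491 in the DSS libraries and 43 in the uninjured library. All 7 blood endothelial markers listed for it (Pecam1, Cdh5, Plvap, Kdr, Egfl7, Cldn5, Esam) were detected in the class in each of the 11 libraries, with a summed level of 4776 to 7351 CPM, the counts scaled to a common library total. Levels below are CPM of a class within a library. Their exact 95% Poisson intervals cover counting error only, and neither intervals nor ratios measure the spread between mice.

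**Figure D1:**
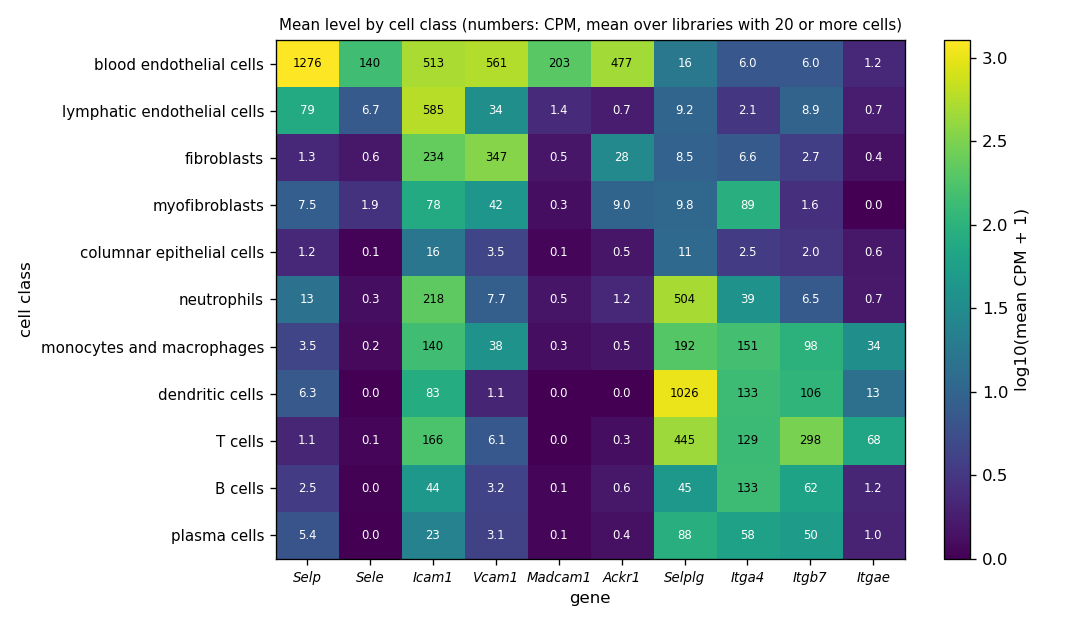
Mean CPM of each of the 10 genes (columns) in 11 cell classes (rows), averaged over libraries with 20 or more cells of the class; colour is log10(mean CPM + 1) and the printed numbers are CPM. Selp, Sele, Madcam1 and Ackr1 have their highest mean in blood endothelial cells, and Itgb7 and Itgae have theirs in T cells.

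The selectins and Madcam1 were concentrated in blood endothelium, while Icam1 and Vcam1 were spread over several classes, as the map of mean levels by class shows. Blood endothelial cells held 88.5% of all Selp UMIs, 94.6% of Sele, 92.4% of Madcam1 and 70.2% of Ackr1. Mean Selp was 1276 ± 848 CPM in blood endothelium (SD, n = 11 libraries), followed by lymphatic endothelium at 78.6 ± 69.7 CPM (n = 8) and neutrophils at 13.4 ± 4.85 CPM (n = 10). For Selp the ranges of blood and lymphatic endothelium overlapped across libraries, but blood endothelium was higher in each of the 8 libraries that had both.

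Madcam1 averaged 203 ± 118 CPM in blood endothelium (n = 11) and 1.37 CPM in lymphatic endothelium, with no overlap between libraries. Ackr1, which encodes the atypical chemokine receptor of venules, averaged 477 ± 270 CPM in blood endothelium, and fibroblasts came next at 28.2 ± 12.3 CPM (n = 11 each), again with no overlap. Within the fibroblasts Ackr1 was highest in the Pi16/Pcolce2 type, at 38.3 ± 14.3 CPM. Icam1, whose product binds β2 integrins, was highest in lymphatic endothelium (585 ± 288 CPM, n = 8), followed by blood endothelium (513 ± 230 CPM), fibroblasts (234 ± 88.7 CPM), neutrophils (218 ± 86.7 CPM), T cells (166 ± 57.2 CPM) and macrophages (140.5 ± 36.0 CPM), and neighbours in this order overlapped. Vcam1, whose product binds α4 integrins, averaged 561 ± 381 CPM in blood endothelium and 347 ± 141 CPM in fibroblasts, whose ranges overlapped. Because fibroblasts were many, 76.5% of all Vcam1 UMIs came from them.

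A share of cells with a UMI depends on depth and on free RNA, so shares were also taken after each cell was thinned to 1000 UMIs. Columnar epithelial cells served as a low-level comparison class, not as one known to lack these transcripts. Their Icam1 was above the uninjured level in each DSS library, as given below. After thinning, Selp was found in a mean of 21.7% of blood endothelial cells (8 DSS libraries with 20 or more such cells), against 0.142% of columnar cells (23.9% and 1.21% as deposited). Icam1 was found in 26.7% of thinned blood endothelial cells, against 1.41% of thinned columnar cells (40.9% and 9.63% as deposited). Vcam1 was found in 23.9% of thinned fibroblasts, against 0.382% of thinned columnar cells (53.2% and 2.43% as deposited).

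Within blood endothelium the authors separated a type named after Selp and Sele, with 330 cells, from 990 other cells. Its name and clustering used these genes, so the following is a description with no test. Selp was detected in 83.0% of the Selp/Sele cells, against 8.38% of the other cells. Ackr1 was detected in 76.1%, against 1.21%, and Madcam1 in 46.7%, against 0.909%. Icam1 and Vcam1 reached further into the other cells: Icam1 was detected in 74.2% of the Selp/Sele cells and 35.5% of the others, and Vcam1 in 60.0% and 18.8%.

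**Figure D2:**
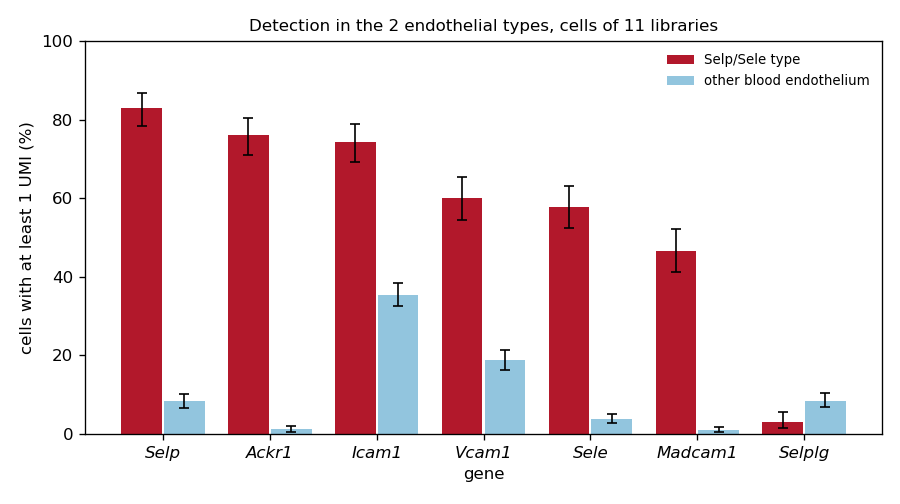
Share of cells with at least 1 UMI (%, vertical axis) for 7 genes in the 330 cells of the Selp/Sele type (dark bars) and the 990 other blood endothelial cells (light bars), all 11 libraries joined; error bars are exact 95% binomial intervals. Bars for Selp, Ackr1, Sele and Madcam1 are below 10% in the other cells, while Selplg is at 3.03% in the Selp/Sele cells and 8.48% in the others.

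Detection also varied inside the Selp/Sele type. Madcam1 was detected in 57.8% of its cells with an Ackr1 UMI, against 11.4% of those without. In the day 7 library the shares were 60.4% and 6.90%, in the day 11 library 52.9% and 25.0%, and in the day 18 library 29.7% and 0%. The direction was the same in these 3 libraries, which hold most of the cells, and a deeper cell is likelier to show both genes, which was not tested. Of the other pairs counted, Madcam1 was detected in 58.0% of day 7 cells with a Sele UMI and in 22.9% of those without, with the same direction on days 11 (51.1% and 35.0%) and 18 (40.0% and 15.2%). Madcam1 in cells with and without a Vcam1 UMI was 58.9% and 28.9% on day 7 and 33.3% and 9.52% on day 18, but 46.5% and 45.8% on day 11. Sele was detected in 86.5% of day 7 Selp/Sele cells with an Icam1 UMI and in 16.7% of those without, and the day 11 (77.8% and 38.5%) and day 18 (41.4% and 15.8%) libraries had the same direction.

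Against the uninjured library, Selp and Icam1 were higher in blood endothelium of every DSS library. Sele had UMIs in each of them and 0 in the uninjured library. In 7 of 9 its lower limit lay above the 29.9 CPM that a count of 0 allows. Selp had 1815, 1858, 2857 and 2195 CPM in the day 6, 7, 9 and 11 libraries, 779, 1287 and 887 CPM in those of days 12, 16 and 18, and 469 and 321 CPM in those of days 19 and 23, against 159 CPM (16 UMIs) in the uninjured library. The 4 libraries of days 6 to 11 were the highest, and day 23 was the lowest of the DSS libraries. The Selp ratio to uninjured had a median of 8.07 over the 9 DSS libraries (2.01 to 17.9), and its exact 95% counting interval lay above 1 in 9 of 9. In the Il10-/- library Selp was 1407 CPM, which is 8.82 times the uninjured level (5.33 to 15.7).

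Sele was 53.4, 371, 147, 414, 54.4, 124, 149, 101 and 118 CPM in the DSS libraries in order of day, against 0 UMIs in the uninjured library. A count of 0 there allows up to 29.9 CPM, taken as 3 counts, so Sele was at least 13.8-fold higher on day 11. On day 6 (4 UMIs) and day 12 (9 UMIs) the lower limits of 14.5 and 24.9 CPM lay below what a count of 0 allows. Such an overlap of limits is not a test of a difference. The day 7 and day 11 libraries stood above the rest. Both were fresh libraries, while the frozen libraries of days 6, 9 and 12 had 53.4, 147 and 54.4 CPM. The fresh day 18 library had 149 CPM. The part of batch in these levels was not tested. In the Il10-/- library Sele was 5.50 CPM from 1 UMI, below the limit that 3 counts set for the uninjured library, although Selp was high there.

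Icam1 was 694, 738, 735, 593, 296, 492, 253, 776 and 627 CPM on the same days, against 119.6 CPM (12 UMIs) in the uninjured library. Its levels on days 19 and 23 were above the day 11 level, while those of Selp were the lowest of the DSS libraries. The median ratio of Icam1 was 5.24 (2.11 to 6.49), with 9 of 9 intervals above 1, and in the Il10-/- library it was 319 CPM, or 2.66 times the uninjured level (1.42 to 5.45).

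Vcam1 was 1614 CPM on day 6, against 299 CPM in the uninjured library, and 394, 415, 481, 773, 706, 309, 398 and 385 CPM on the later days. Day 6 alone was above 1000 CPM, and 4 of 9 intervals of the ratio lay above 1. Madcam1 was 360.2, 186, 396, 266, 242, 154, 68.9, 292 and 69.1 CPM, against 139.6 CPM in the uninjured library; 4 intervals lay above 1 and that of day 18 lay below 1. Ackr1 was 961, 427, 997, 478, 356, 432, 301, 549 and 212 CPM, against 339 CPM, with days 6 and 9 highest and 4 intervals above 1. In the Il10-/- library Vcam1 was 396 CPM (ratio 1.32, 0.853 to 2.10), Madcam1 60.5 CPM (0.433, 0.178 to 1.03) and Ackr1 198 CPM (0.584, 0.355 to 0.962). Selp and Icam1 were thus above the uninjured level in the Il10-/- library, and the Ackr1 interval lay below it.

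Genes in this class with 20 or more UMIs in either library give a background for a ratio of at least 2. Of the adhesion genes that met this count, the ratio was reached by 5 of 5 on day 6 (11.6% of all genes), 4 of 8 on day 7 (6.25%), 5 of 6 on day 9 (21.9%), 3 of 8 on day 11 (8.43%) and 3 of 5 on day 12 (15.9%). It was reached by 4 of 6 on day 16 (15.5%), 3 of 7 on day 18 (9.95%), 4 of 6 on day 19 (12.2%) and 3 of 5 on day 23 (9.06%), and in the Il10-/- library by 2 of 4 (11.8%). A gene passes this count more easily in a library where it is high, so these counts describe the genes that passed and do not test them. Selp and Icam1 were among them in each of the 10 libraries.

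The make-up of the class also differed between libraries. The Selp/Sele type was 7 of 54 blood endothelial cells in the Il10-/- library, 13.2% to 33.3% of them in the DSS libraries and 9.30% in the uninjured library (4 of 43 cells, exact 95% interval 2.59% to 22.1%). The day 6, 7, 9 and 11 libraries, highest for Selp among the DSS libraries, also had the highest shares (33.3%, 27.5%, 30.3% and 29.4%). Day 23 was the lowest DSS library for both. Day 19, with a share of 26.0%, had less Selp than day 16, with 16.1%. The part of the make-up in the Selp levels was not tested. Within the Selp/Sele type, Selp was 6631 CPM in the Il10-/- library, 1644 to 6243 CPM in the DSS libraries and 798 CPM (11 UMIs) in the uninjured library. Within the other blood endothelial cells it was 0 to 522 CPM in the DSS libraries and 0 in the Il10-/- library, against 57.8 CPM in the uninjured one, so the ranges overlapped. Icam1 in the other cells was 119 CPM in the Il10-/- library, 156 to 520.4 CPM in the DSS libraries and 46.2 CPM in the uninjured library. Neutrophil markers summed to 20506 CPM in blood endothelium of the Il10-/- library, 247 to 27978 CPM in the DSS libraries and 9.97 CPM in the uninjured library, where 5 of the 6 markers (S100a8, S100a9, Csf3r, Ly6g and Retnlg) were at 0 and Cxcr2 had 1 UMI. Their part in the differences was not tested.

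Over the 9 DSS libraries, slopes of level against day were fitted to all genes of a class with edgeR's quasi-likelihood test, with batch as a term. In blood endothelium 1.30% of 3537 genes had an adjusted p under 0.05, and 0 of the 6 adhesion genes tested did (482 genes had an unadjusted p under 0.05, among them 4 of the 6). Selp had a slope of -1.57 ± 0.33 log2 per 10 days (SE, adjusted p = 0.0516), Ackr1 of -0.96 ± 0.24 (0.0627), Vcam1 of -0.87 ± 0.27 (0.146) and Madcam1 of -1.18 ± 0.37 (0.161), while Icam1 had -0.34 ± 0.33 (0.770) and Sele -0.38 ± 0.37 (0.763). The median slope of all genes was -0.01. The Selp result sits at the threshold and passed it with DESeq2 (adjusted p = 0.000284), without the batch term (0.0367), over the 6 frozen libraries (0.00635) and without a filter on low counts (4.3971e-12). Leaving out the day 7, 11, 12 or 16 library also brought it past the threshold, and leave-one-out values ran between 0.00950 and 0.210. Ackr1 passed when the day 7, 12 or 19 library was left out (lowest adjusted p = 0.0159), Madcam1 without day 11 or 19 (0.0111) and Vcam1 without day 9 (0.00639).

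The promoters of Selp and Icam1 are shown because both were above the uninjured level in each DSS library, and those of Sele and Madcam1 because they were concentrated in the same cells. Sequences are the 250 bases before the RefSeq start on the gene's strand, from the GRCm38.p6 build. Capitals mark matches to GGAANNNCC on either strand, a loose form of the motif of NF-κB factors that was chosen with these promoters in view. Selp lies at chr1:164115264-164150026 and its promoter at chr1:164115014-164115263 (plus strand). Sele lies upstream of it at chr1:164048234-164057677, with its promoter at chr1:164047984-164048233 (plus strand). Icam1 lies at chr9:21015985-21028817, with its promoter at chr9:21015690-21015939 (plus strand), and Madcam1 at chr10:79664559-79668537, with its promoter at chr10:79664309-79664558 (plus strand). Gene positions are those of GENCODE on mm10.
Selp: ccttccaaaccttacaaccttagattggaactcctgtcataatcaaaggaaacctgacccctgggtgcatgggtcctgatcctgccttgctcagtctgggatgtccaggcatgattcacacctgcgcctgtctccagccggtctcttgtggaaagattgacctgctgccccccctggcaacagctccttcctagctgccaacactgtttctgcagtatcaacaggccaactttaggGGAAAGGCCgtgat
Sele: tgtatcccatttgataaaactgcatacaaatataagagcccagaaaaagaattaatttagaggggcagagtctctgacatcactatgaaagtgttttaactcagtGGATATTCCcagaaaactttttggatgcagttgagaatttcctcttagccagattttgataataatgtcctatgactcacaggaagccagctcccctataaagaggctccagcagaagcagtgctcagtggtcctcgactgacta
Icam1: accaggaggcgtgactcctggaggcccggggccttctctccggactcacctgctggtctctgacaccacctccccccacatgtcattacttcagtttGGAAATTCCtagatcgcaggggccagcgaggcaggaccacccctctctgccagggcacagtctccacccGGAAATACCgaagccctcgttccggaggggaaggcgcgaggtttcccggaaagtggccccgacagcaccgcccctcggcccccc
Madcam1: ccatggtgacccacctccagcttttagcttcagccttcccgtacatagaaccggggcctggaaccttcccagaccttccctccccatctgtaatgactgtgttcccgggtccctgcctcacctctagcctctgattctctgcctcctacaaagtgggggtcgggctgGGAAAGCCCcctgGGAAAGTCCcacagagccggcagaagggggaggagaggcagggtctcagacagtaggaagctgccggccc
The Selp match begins 14 bases before the start, and the Sele match, which is on the other strand, 145 bases before it. Icam1 has matches at 153 (both strands) and 84 bases before the start, and Madcam1 at 83 and 70. The motif was present in 5 of the 7 adhesion genes with an entry, Ackr1 being the other, and absent from these windows of Itga4 and Itgb7; 15.7% of 32851 promoters of this length held it. A match is a description of the letters and says nothing of binding. Vcam1, Selplg and Itgae had no entry.

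Over 26 cell types, the genes most like Selp in level (Pearson r of log2(CPM + 1), among 10922 genes) were Hoxd4 (r = 0.93), Tll1 (0.92) and Grrp1 (0.90). Glycam1, which encodes a mucin-like glycoprotein of high endothelial venules, was among the 3 most like both Sele (0.96) and Madcam1 (0.95), beside Serpina1e (0.98 and 0.97); Hoxd4 (0.94) was the other for Sele and Rasgef1a (0.92) for Madcam1. These values share the libraries and rest on types with few positive cells, and the Selp/Sele type reached 20 cells in the 3 fresh libraries alone. Hoxd4 had 0 UMIs in blood endothelium of every frozen library. In the day 7, 11 and 18 libraries it was 12.2, 21.9 and 27.4 CPM in the Selp/Sele type. Blood endothelium as a whole had 14.7, 22.4 and 26.3 CPM of Hoxd4 in these libraries. The part of batch in its likeness to Selp and Sele was not tested. Glycam1 varied widely between libraries: in blood endothelium it was 522 CPM in the Il10-/- library, 1031 on day 18, 265 on day 11 and 214 on day 16, at 30.2 CPM or less on days 6, 7, 9, 12, 19 and 23, and at 0 UMIs in the uninjured library. The Il10-/- and day 18 libraries, which were highest for Glycam1, had Madcam1 at 60.5 and 68.9 CPM, and day 23, with 0 Glycam1 UMIs, had it at 69.1 CPM. Serpina1e rested on few counts. In the Selp/Sele type it had 5, 13 and 15 UMIs on days 7, 11 and 18 (3.59, 21.9 and 41.1 CPM). Icam1 was most like Slc25a30 (0.90), Elk3 (0.88) and Qk (0.88), Vcam1 most like Mgp (0.92), Fmo2 (0.91) and Gja1 (0.91), and Ackr1 most like Fjx1 (0.87), Lpar4 (0.85) and Zfp57 (0.84).

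Summed over all fibroblasts, Vcam1 was above the uninjured level in each DSS library and in the Il10-/- library. It was 488, 423, 448, 383, 417, 492, 223, 443 and 246 CPM on days 6 to 23, against 96.5 CPM (323 UMIs) in the uninjured library. The libraries of days 18 and 23 were the lowest of the DSS libraries and still above the uninjured one. The median ratio was 4.38 (2.31 to 5.10), with 9 of 9 intervals above 1, and the Il10-/- library had 154 CPM (ratio 1.59, 1.39 to 1.82). Icam1 in fibroblasts was 193, 407, 215, 204, 164, 341, 173, 339 and 231 CPM, against 126 CPM, with a median ratio of 1.71 and 9 of 9 intervals above 1, and the Il10-/- library had 178 CPM. Fibroblast Ackr1 was lower, at 11.1 to 36.5 CPM in the DSS libraries, against 49.3 CPM in the uninjured library, with 8 of 9 intervals below 1. The make-up of the fibroblasts differed too: the Pi16/Pcolce2 type was 557 of 813 cells in the Il10-/- library, 918 of 2033 on day 7, 282 of 632 on day 11 and 592 of 777 in the uninjured library. Within that type Vcam1 was 127 CPM in the Il10-/- library and 209 to 425 CPM in the DSS libraries, against 66.0 CPM in the uninjured library, and Ackr1 was 49.5 CPM and 15.9 to 54.2 CPM, against 58.6 CPM. Within the Adamdec1/Bmp4 type Vcam1 was 253 CPM in the Il10-/- library and 236 (day 18) to 801 CPM in the DSS libraries, against 235 CPM in the uninjured library, so day 18 did not stand above it there. Neutrophil markers summed to 206 to 4673 CPM in fibroblasts of the DSS libraries, against 11.1 CPM in the uninjured library; their part was not tested, and blood endothelial markers summed to no more than 36.5 CPM there.

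In fibroblasts 4.65% of 10290 genes had a day slope past the threshold, and 0 of the 5 adhesion genes tested did; 2031 genes had an unadjusted p under 0.05. Vcam1 had -0.56 ± 0.16 log2 per 10 days (edgeR, adjusted p = 0.0602), which passed with DESeq2 (0.0158), without the filter on low counts (0.0275) and without the day 16 (0.0496) or day 19 library (0.0402). Icam1 had -0.06 (0.963), Ackr1 0.49 (0.433), Selplg -0.73 (0.152) and Itga4 0.44 (0.434).

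Icam1 was lower than in the uninjured library in macrophages and higher in columnar cells. In monocytes and macrophages Icam1 was 163, 159, 132, 106, 126, 130.2, 106, 130.1 and 141 CPM on days 6 to 23, against 234 CPM (62 UMIs) in the uninjured library, and 117 CPM in the Il10-/- library. All 9 DSS intervals of the ratio lay below 1. In columnar cells Icam1 was 7.44 to 29.3 CPM in the DSS libraries, against 3.70 CPM in the uninjured library, with a median ratio of 5.19. Selplg, a leukocyte gene, had a median ratio of 14.3 in the same columnar cells (3.44 to 26.9 CPM, against 0.694 CPM in the uninjured library), so leukocyte transcripts were also higher among the columnar cells.

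On the leukocyte side Selplg marked myeloid cells and T cells. It averaged 1026 ± 134 CPM in dendritic cells (n = 5), 504 ± 113 CPM in neutrophils (n = 10), 445 ± 62.6 CPM in T cells and 192 ± 30.5 CPM in monocytes and macrophages (n = 11 each). Because neutrophils were many, 52.2% of all Selplg UMIs came from them. Dendritic cells were above neutrophils with no overlap in the libraries counted, while neutrophils and T cells overlapped. After thinning, Selplg was found in 35.1% of T cells of the DSS libraries, against 0.927% of columnar cells (60.6% and 7.16% as deposited). Neutrophil Selplg ranged from 306 CPM on day 9 to 690 CPM on day 18, with 490 CPM in the Il10-/- library. The uninjured library held 0 neutrophils of the authors' typing, and the DSS libraries held 244 to 4193, so there was no uninjured level to set against.

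Neutrophils had a low level of Selp too. A Selp UMI was found in 600 of 12565 neutrophils (4.78%), and 1.67% of these had a platelet transcript (Pf4, Ppbp, Itga2b, Gp9 or Gp1bb), against 1.50% of the other neutrophils. After thinning, 1.13% of neutrophils of the DSS libraries had a Selp UMI, against 0.142% of columnar cells. Blood endothelial markers summed to 11.0 to 375 CPM in neutrophils of the DSS libraries and to 3.53 to 26.9 CPM in their columnar cells, so columnar cells are not a full background for endothelial RNA in neutrophils; its part was not tested. In neutrophils 2.61% of 8394 genes had a day slope past the threshold, and 0 of the 6 adhesion genes tested did; 1660 genes had an unadjusted p under 0.05.

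Itga4 was spread over several leukocyte classes, at 151 ± 59.2 CPM in monocytes and macrophages, 133 ± 64.7 CPM in dendritic cells, 133 ± 42.7 CPM in B cells and 129 ± 35.5 CPM in T cells, whose ranges overlapped. The Apold1 myofibroblasts, which reached 20 cells in the 3 fresh libraries alone, had 199.8 ± 50.4 CPM there. In monocytes and macrophages Itga4 followed the batch: it was 275, 221 and 224 CPM in the fresh libraries of days 7, 11 and 18, against 111 to 126 CPM in the 6 frozen DSS libraries, 120.2 CPM in the Il10-/- library and 106 CPM in the uninjured library. The fresh and frozen libraries did not overlap for it.

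Itgb7 was highest in T cells (298 ± 61.3 CPM), ahead of dendritic cells (106 ± 30.1 CPM) and monocytes and macrophages (98.1 ± 38.2 CPM), with no overlap between T cells and dendritic cells. In T cells it was 209.8, 259.6, 241, 271, 267, 262, 298, 327 and 387 CPM on days 6 to 23, against 356 CPM (20 UMIs) in the uninjured library, and 398 CPM in the Il10-/- library. Day 6 was the lowest and day 23 the highest of the DSS libraries. The slope was 0.38 ± 0.13 log2 per 10 days, and the edgeR adjusted p was 0.267. In T cells 0.217% of 7848 genes had a slope past the threshold, and 0 of the 5 adhesion genes tested did, with 755 genes at an unadjusted p under 0.05. T-cell Icam1, at 279.8 CPM on day 6 and 109.7 CPM on day 23, had a slope of -0.73 ± 0.16 (adjusted p = 0.0570), which passed with DESeq2 (0.0164), with DESeq2's size factors in edgeR (0.0474), without a filter (0.00553), without the proliferating T cells (0.0418) and without the day 11 (0.0118), day 12 (0.0402) or day 19 library (0.0230). Neutrophil markers in T cells ran between 249.8 and 16072 CPM in the DSS libraries, were lowest on day 23, and stood at 142 CPM in the uninjured library.

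B cells held the 1 slope that passed. B-cell Itgb7 was 30.5, 46.4, 34.1, 60.5, 48.4, 46.0, 65.1, 75.9 and 91.1 CPM on days 6 to 23, beside 85.4 CPM in the Il10-/- library and 94.4 CPM (7 UMIs) in the uninjured library. Days 6 and 9 were the lowest, day 23 was the highest of the DSS libraries, and the interval of each DSS ratio to the uninjured library held 1. It rose with day by 0.71 ± 0.19 log2 per 10 days (edgeR quasi-likelihood, Benjamini-Hochberg adjusted p = 0.0366), where 0.876% of 6852 genes passed and 1 of the 4 adhesion genes tested did. The call was lost with DESeq2 (adjusted p = 0.163) and without the batch term (0.670), and when the day 6 (0.0760), day 9 (0.129) or day 23 library (0.487) was left out. The day 6 value rests on 2 UMIs in 61 cells, and neutrophil markers in B cells summed to 3787 CPM on day 6 and 276 CPM on day 23; their part was not tested.

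Itgae averaged 68.4 ± 24.7 CPM in T cells and 34.0 ± 28.0 CPM in monocytes and macrophages, with T cells higher in 9 of the 11 libraries. T cells with a Cd8a or Cd8b1 UMI were set against those with a Cd4 UMI in the 9 libraries with 20 or more cells of each. Itgae was higher in the Cd8 cells of 9 of 9 libraries, with a lowest value of 56.4, a median of 156 and a highest of 181 CPM, against 11.2, 35.0 and 99.4 CPM in the Cd4 cells. The mean difference was 85.1 CPM, and the exact two-sided permutation test over libraries gave p = 0.00391, the smallest it can give. Itgb7 went the other way, with 188, 213 and 324 CPM in the Cd8 cells, against 260.0, 307 and 426 CPM in the Cd4 cells. It was lower in the Cd8 cells of 9 of 9 libraries (mean difference -99.4 CPM, exact permutation p = 0.00391). In the 6 frozen libraries, the Il10-/- one included, the mean differences were 114 CPM for Itgae and -78.9 CPM for Itgb7, and in the 3 fresh libraries 27.8 and -140.4 CPM, so the direction was the same in both batches and the size was not.

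Selplg averaged 449 ± 97.2 CPM in the Cd8 cells and 362 ± 88.6 CPM in the Cd4 cells, higher in 8 of 9 libraries (exact permutation p = 0.0195). Itga4 (126 and 109 CPM, p = 0.441 by the same exact test) and Icam1 (126 and 124 CPM, p = 0.906) had differences of either sign between libraries. These were 5 genes compared, and the p-values are not adjusted. Among T cells with a Foxp3 UMI, the marker of regulatory T cells, Itgae was found in 27.8 ± 10.6% of cells as deposited and 12.8 ± 13.4% after thinning (SD over 8 DSS libraries). UMIs of both Itga4 and Itgb7, the 2 chains of the MAdCAM-1 receptor, were found together in 15.1 ± 10.5% of T cells of the DSS libraries as deposited and in 3.04 ± 1.84% after thinning. Taken singly, Itga4 was found in 12.4 ± 2.88% and Itgb7 in 25.0 ± 4.70% of these T cells after thinning. Whether the 2 occurred together more often than their single shares give was not tested.

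In monocytes and macrophages Itgae was 115 CPM on day 18, 20.8 to 35.2 CPM in the other 8 DSS libraries, 25.2 CPM in the Il10-/- library and 7.55 CPM (2 UMIs) in the uninjured library. Day 18 stood apart, with 168 cells of the class. The make-up of the class differed too. The authors' proliferating macrophage type was 31 of 865 cells in the Il10-/- library and 4 of 67 in the uninjured library. It was 3 of 992 on day 6, 13 of 168 on day 18, 21 of 1173 on day 19 and 12 of 459 on day 23. Over all libraries it held 135 Itgae UMIs in 136 cells, against 1098 in the 8171 other cells of the class. Its part in the day 18 level was not tested. The class held 376 cells with an Itgae UMI. Of these, 83.5% had a transcript of the dendritic list (Flt3, Xcr1, Clec9a, Cd209a, Siglech), against 12.5% of the 7931 others. Xcr1 or Clec9a, which mark cross-presenting dendritic cells, was present in 59.6%, against 1.99%. C1qa, C1qb or Adgre1, which mark macrophages, were found in 13.8%, against 46.3%. Cells with an Itgae UMI were deeper, at a median of 11158.5 UMIs, against 3528.

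By CPM, which does not scale with depth, Xcr1 and Clec9a summed to a median of 289 in the Itgae cells and 7.87 in the others, higher in 10 of 10 libraries. C1qa, C1qb and Adgre1 summed to 22.6 and 1283 CPM, lower in 10 of 10, and Itgb7 was 151 and 69.1 CPM, higher in 10 of 10. The dendritic list as a whole summed to 329 CPM in the class on day 18 and to 82.1 to 180.4 CPM in the other DSS libraries, so day 18 was the highest for both Itgae and dendritic markers; the part of one in the other was not tested. In monocytes and macrophages 12.4% of 10058 genes had a day slope past the threshold, and 0 of the 7 adhesion genes tested did, with 2917 genes at an unadjusted p under 0.05. Selplg came nearest, at 0.26 ± 0.09 log2 per 10 days (edgeR, adjusted p = 0.0798; 0.0435 without the day 7 library), and Itgae had 0.76 (0.197). Vcam1 had 0.63 (0.374) and passed without the day 18 library (0.0428).

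Among the leukocyte genes, Selplg was most like Itgb2 (r = 0.94), Cyth4 (0.94) and Itgal (0.93) over the 26 types, Itga4 most like Trpv2 (0.89), Pik3cd (0.86) and Akna (0.85), Itgb7 most like Myo1g (0.97), Runx3 (0.96) and Cd48 (0.95), and Itgae most like Havcr2 (0.94), Gna15 (0.89) and Myo1g (0.87). Itgb2 and Itgal encode the chains of LFA-1, a receptor for ICAM-1. These, too, are descriptions over types that share libraries.

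Other genes of the pathway were taken from 7 lists. In monocytes and macrophages the leukocyte adhesion receptors held the most calls, where 12.4% of all genes passed: of 12 tested, 6 fell with day and 1 rose, and the median slope was -0.43 log2 per 10 days, against 0.01 for all genes. Itgam, the α chain of Mac-1, fell by 0.92 ± 0.12, with 307 CPM on day 6 and 122 CPM on day 23 (edgeR, adjusted p = 0.000874), and Itga5, the α chain of a fibronectin receptor, by 0.86 ± 0.11 (0.000677). The gene that rose was Itgax, which encodes the integrin α chain CD11c (0.46 ± 0.11, edgeR adjusted p = 0.0199), a call lost without the day 6, 9 or 18 library. In the same class 5 of 5 dendritic markers had positive slopes (median 1.14, none past the threshold) and 2 of 3 B-cell markers rose (median 1.53); their part in the slopes of Itgax and of Ccr9 below was not tested. Without the batch term 1 of the 7 calls was made; leaving out any 1 library left 6 or 7. Neutrophil markers in this class summed to 2638 CPM on day 6 and 389 CPM on day 23, and Itgam is also made by neutrophils; their part was not tested.

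In the same cells Fn1, which encodes fibronectin, fell by 0.80 ± 0.11, the IL-1 receptor gene Il1r1 by 2.04 ± 0.47, the TNF receptor gene Tnfrsf1b by 1.11 ± 0.19 and the IL-4 receptor gene Il4ra by 0.43 ± 0.10 (3 of 9 cytokine receptors fell, none rose). Cyth1, a regulator of β2 integrin adhesion, fell by 0.82 ± 0.13, as 1 of 10 integrin activation genes. Ccr9, the small-intestinal homing receptor, rose by 1.09 ± 0.30 at 1.41 CPM on day 6 and 5.60 CPM on day 23, as 1 of 6 homing receptors, and Cd99l2 rose by 1.20 ± 0.32, as 1 of 8 vascular genes. The Ccr9 call was lost without the day 6, 9, 18, 19 or 23 library, that of Cd99l2 without day 6, 7, 18, 19 or 23, and those of Il1r1 and Il4ra without day 23. Without the batch term Fn1 alone of these genes passed, so 0 cytokine receptors did. Over the 6 frozen libraries the calls of Il1r1, Il4ra and Cd99l2 were lost, and that of Cd99l2 also with DESeq2. The shares of 1 in 6 to 1 in 10 are near the 12.4% of all genes that passed. Of the 10 selectin ligand enzymes 0 passed.

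In fibroblasts Itga5 fell by 1.05 ± 0.12 (180.6 CPM on day 6 and 57.3 CPM on day 23) and Itgam by 1.18 ± 0.31, 2 of 11 leukocyte adhesion receptors, where 4.65% of all genes passed. Neutrophil markers had negative slopes there in 6 of 6 (median -1.54, none past the threshold), and their part in the Itgam slope was not tested. Il1r1 fell by 0.74 ± 0.13, Il4ra by 0.69 ± 0.12 and Il6st, the shared receptor chain of the IL-6 family, by 0.44 ± 0.09, 3 of 8 cytokine receptors. Cd34, a sialomucin of vessels and fibroblasts, rose by 0.83 ± 0.16, and Fn1 rose by 0.70 ± 0.15, opposite in sign to its slope in macrophages (the difference was not tested). S1pr1, a receptor that guides cell exit from tissue, fell by 1.40 ± 0.37 at a level of 4.73 CPM on day 6 and 1.52 CPM on day 23. The Itgam call was lost without the day 6, 7, 9, 18 or 23 library, that of S1pr1 without day 6, 9, 12, 16, 18, 19 or 23, that of Il6st without day 6, 9, 18, 19 or 23, that of Fn1 without day 6, 18 or 19, and those of Cd34 and Il4ra without day 6. Without the batch term Itga5 alone of these genes passed, and 0 cytokine receptors did. Over the 6 frozen libraries the calls of Itgam and Fn1 were lost.

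In blood endothelium Jam3, a junction molecule, rose by 1.10 ± 0.27 (40.0 CPM on day 6 and 128 CPM on day 23, edgeR adjusted p = 0.0440). No other of the 12 vascular genes tested passed, where 1.30% of all genes did. The Jam3 call was lost when the day 6, 9, 12, 16, 18, 19 or 23 library was left out. None of 5 leukocyte adhesion receptors (Itgb1 at a mean of 436 CPM and Itga6 at 355), 6 selectin ligand enzymes (St3gal6 at 126 and Tpst2 at 72.7), 5 integrin activation genes (Rap1b at 306 and Rap1a at 209) or 7 cytokine receptors (Il6st at 654 and Tnfrsf1a at 206) passed. In T cells Cxcr6, a receptor of tissue-resident T cells, rose by 0.77 ± 0.15 (256 CPM on day 6 and 464 CPM on day 23, edgeR adjusted p = 0.0152). Cxcr4, the CXCL12 receptor, fell by 0.74 ± 0.15 (431 and 112 CPM, edgeR adjusted p = 0.0293). These were 2 of 8 homing receptors, where 0.217% of all genes passed. Neutrophil markers in T cells had negative slopes in 6 of 6 (median -1.62, none past the threshold). T-cell markers had positive slopes in 5 of 5 (median 0.59, 1 past the threshold). The part of either in these calls was not tested. The Cxcr6 call was lost without the day 18 library (adjusted p = 0.218) and the Cxcr4 call without day 6, 16, 18 or 23 (up to 0.256), and neither passed without the batch term. In neutrophils Itgam fell by 1.01 ± 0.16, as 1 of 13 leukocyte adhesion receptors tested. Tln1, which encodes the integrin activator talin, fell by 0.60 ± 0.14, as 1 of 11 integrin activation genes. Of all genes there 2.61% passed. The Tln1 call was lost without the batch term and when any 1 library other than those of days 6 and 11 was left out. The neutrophil markers of this class had negative slopes in 6 of 6 (median -1.05, 2 past the threshold), and their part in these slopes was not tested. In B cells none of the 39 genes tested from these lists passed, where 0.876% of all genes did.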

How the data were processed

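Single-cell 3′ RNA libraries of the mouse colon were analysed from the authors' deposited matrix of raw UMI counts. The submitters' processing notes name Cell Ranger 3.0.0 and mm10. Cell types came from the authors' deposited cell table. Doublets were not called; their treatment upstream is not given in the sources used here. The 3 further libraries in the table (12621 cells) were not analysed here. Rows that name no gene (597, holding 0.517% of counts) were left out.

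Counts were summed per library and class (20 or more cells) and scaled to CPM. Ratios to the uninjured library have exact 95% intervals, and a level of 0 was bounded by 3 counts. Slopes on day over the 9 DSS libraries were fitted with edgeR 4.0.16 (TMM factors, quasi-likelihood test, day and batch label as terms, Benjamini-Hochberg adjustment over all genes that passed the filter on low counts). The fit was also run on simulated counts with known slopes. These had a single dispersion and no batch effect, so that run does not check the batch term. Each library is a single pool, so p-values measure the scatter of libraries about the trend. T-cell subsets were compared by an exact sign-flip permutation test over libraries. Alternatives were DESeq2, DESeq2's size factors in edgeR, no filter, no batch term, the 6 frozen DSS libraries, leaving out each library, and levels without mitochondrial genes. Genes of the pathway were named where they passed the threshold, and for blood endothelium also the 2 with the highest mean where a list had no call. The adhesion genes, lists and tests were chosen with earlier results of these data known. Analyses used Python 3.11.15, numpy 2.4.6, pandas 2.3.3 and scipy 1.17.1. The result of 1 gene of the pathway lists is not reported here.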

Additional observations from a re-analysis of the deposited data

How the results depend on the processing

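No paired analysis was possible because each group has 1 library, so samples of different groups share no pair; Cd8 and Cd4 T cells were compared within libraries. The number of genes with a day slope past the threshold moved by more than 1.5 times under some settings, and the cause was not tested. In blood endothelium (46) it was 111 with DESeq2, 411 with no filter, 17 with no batch term, 86 over the 6 frozen libraries and 39 to 78 with 1 library left out; in fibroblasts (478) 770, then 89 with no batch term and 167 to 636; in macrophages (1248) 152 with no batch term and 447 to 1368; in neutrophils (219) 486, 770, 21, 134 and 35 to 286; in T cells (17) 75, 266, 0, 43 and 0 to 110; in B cells (60) 121 with no filter, 0 with no batch term and 23 to 132.

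The number of adhesion genes called in blood endothelium (0) was 3 with DESeq2, 5 with no filter, 1 with no batch term, 2 over the frozen libraries and 0 to 2 with 1 library left out. In fibroblasts (0) it was 2 with DESeq2 or no filter and 0 to 1, in macrophages (0) 1 with no filter, 2 over the frozen libraries and 0 to 1, in neutrophils (0) 1 with no filter, in T cells (0) 1 with DESeq2, its size factors, no filter or without proliferating cells and 0 to 1, and in B cells (1) 0 with DESeq2 or no batch term and 0 to 1.

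Slopes that changed sign had not passed the threshold. Over the frozen libraries these were Sele 0.22 and Icam1 0.026 in endothelium, Icam1 0.35 in fibroblasts, Itgb7 -0.024 in macrophages, Icam1 0.011 and Vcam1 0.33 in neutrophils, Itgae -0.028 in T cells, and Icam1 0.36 and Itga4 0.18 in B cells. With no filter they were Itga4 -0.031 in neutrophils and 0.017 in B cells, with no batch term Vcam1 0.051 and Itga4 -0.11 in neutrophils, and with DESeq2 Itga4 0.038 in B cells. With 1 library left out the ranges were -0.68 to 0.24 for Sele in endothelium, -0.25 to 0.25 for Icam1 in fibroblasts, -0.056 to 0.24 for Itgb7 in macrophages, -0.36 to 0.19, -1.38 to 0.092 and -0.21 to 0.26 for Selp, Vcam1 and Itga4 in neutrophils, -0.030 to 0.39 for Itgae in T cells, and -0.22 to 0.24 and -0.11 to 0.19 for Icam1 and Itga4 in B cells. The Icam1 difference between Cd8 and Cd4 cells ran between -9.18 and 11.8 CPM. The share of T cells with both Itga4 and Itgb7 was 15.1% as deposited and 3.04% thinned. The class with the highest level was the same for 10 of 10 genes without mitochondrial genes. Depth limits blood endothelium most on day 6 and in the uninjured library, whose 27 and 43 cells held 74951 and 100314 UMIs.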

Other observations

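Lymphatic endothelium carried its own part of the adhesion genes. Among its 807 cells Icam1 was detected in 59.2%, Selp in 9.79% and Vcam1 in 4.34%, while Sele (0.867%), Madcam1 (0.496%) and Ackr1 (0.248%) were detected in under 1%. The lymphatic and the other, non-Selp/Sele blood endothelial cells had median depths of 4403 and 3632.5 UMIs.

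Glycam1 within the Selp/Sele type was 2461 CPM from 7 cells of the Il10-/- library, 3444 CPM from 48 cells on day 18, 752 CPM from 67 cells on day 11 and 9.33 CPM from 135 cells on day 7, against 0 UMIs from 4 cells in the uninjured library. In that type 3 libraries had 20 or more cells (days 7, 11 and 18, all fresh), and among these Glycam1 was lowest on day 7 and highest on day 18. In blood endothelium as a whole its slope was 3.44 ± 1.98 log2 per 10 days, with an edgeR adjusted p of 0.548.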
